A study of Homo sapiens with 8 samples.

Results

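The genes described here are 36 genes of DNA replication and the S phase of the cell cycle, chosen by symbol from the 23354 genes of the deposited count table. All 36 were in the table, and all 36 passed the filter on low counts that left 15564 genes for testing. They were followed through 8 RNA sequencing libraries of mesenchymal stromal cells, unfrozen or frozen and thawed, that had been made from the human embryonic stem cell line H9. The libraries fell into 3 groups. The fresh group held 3 libraries of unfrozen cells: 1 at 0 h, 1 kept in DMSO for 1 h and 1 kept in plain medium for 1 h. The DMSO-frozen group held 2 libraries, from cells kept in DMSO, the conventional protectant, for 0 h or 1 h. The osmolyte-frozen group held 3 libraries from experimental solutions of several osmolytes: SMC at 2 h, SGC at 1 h and SGI at 1 h. The hold took place at room temperature, and the DMSO vials were cooled more slowly than the osmolyte vials, so solution and cooling rate cannot be told apart. All groups came from the same cell line, grown in serum-containing medium and thawed, where frozen, in a warm water bath. Each condition had 1 library, and nothing in the labels says that the libraries came from separate cultures, so the p-values measure no more than the spread among libraries of unlike conditions, and that spread may be technical.

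Before a cell copies its DNA, the origin recognition complex, CDC6 and CDT1 load the ring of MCM2 to MCM7, the helicase that will unwind the duplex. MCM10 and the GINS complex help to switch that helicase on, DNA polymerase alpha with its primase starts each new strand, and polymerases delta and epsilon extend it while held on the template by the PCNA clamp, which RFC loads. RPA covers the exposed single strands, FEN1 and LIG1 finish the fragments of the lagging strand, and ribonucleotide reductase, thymidylate synthase and thymidine kinase supply the nucleotides. Many of these genes are switched on by E2F transcription factors as a cell passes from G1 into S phase, so their transcripts mark proliferating cells.

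Counts summed to between 41198716 and 51166666 per library. The count of a replication gene in a library ranged from 118 for PRIM1 in SMC, with an exact Poisson 95% interval of 89.8 to 152, to 4546 for RFC1, with an interval of 4361 to 4737. These intervals cover counting error only. Markers of stromal cells (NT5E, THY1, ENG, ALCAM, CD44 and PDGFRB) summed to 1574 to 2501 CPM, the counts after scaling for library size. The endothelial markers PECAM1, CDH5 and KDR summed to 1.46 to 2.68 CPM, and the epithelial markers EPCAM and CDH1 to 0.984 to 1.60 CPM in fresh, 1.85 and 2.14 CPM in DMSO-frozen and 2.26 to 3.13 CPM in osmolyte-frozen libraries. Against fresh cells EPCAM, CDH1 and CDH5 were higher in osmolyte-frozen cells by 0.93, 1.30 and 2.28 on the log2 scale (edgeR adjusted p = 0.00453, 0.0295 and 5.93e-04), with each at most 2.19 CPM. The other endothelial markers, PECAM1 and KDR, were at log2 -0.18 and 0.54 against fresh cells and were not called. None of the endothelial and epithelial markers was called against DMSO-frozen cells, where CDH5 was at log2 1.21, KDR at -1.36 and PECAM1 at 0.025. The 6 markers of pluripotent cells summed to 6.86 to 8.59 CPM in the fresh and DMSO-frozen libraries and to 10.5 to 13.8 CPM in the osmolyte-frozen ones, with SOX2 at 0 to 0.089 CPM throughout. Of the 5 tested, 4 were higher in osmolyte-frozen than in fresh cells, beside 19.1% of all genes. Against DMSO-frozen cells 2 were higher, POU5F1 and DPPA4, beside 13.6% of all genes. The nuclear RNAs MALAT1 and NEAT1 together took 0.393% to 0.567% of counts in the fresh and DMSO-frozen libraries and 0.846% to 0.948% in the osmolyte-frozen ones. The stromal markers summed lowest in the osmolyte-frozen libraries, at 1574 to 1697 CPM, but did not all fall. Of the 6, 4 were lower than in DMSO-frozen cells and 5 lower than in fresh cells. THY1 was higher by 0.245 and 0.220 on the log2 scale (edgeR adjusted p = 0.0392 and 0.0292). What part these shifts had in the changes of replication genes was not tested.

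Part of the replication genes fell after freezing in osmolytes, by modest amounts. The sign of the log2 change was negative for 27 of the 36 against DMSO-frozen cells and for 34 against fresh cells. Of all 15564 genes tested, it was negative for 7080 and 7507. The summed share of counts of the 36 genes was 0.128% ± 0.00510 (SD, n = 3) in fresh libraries. It was 0.119% ± 0.00580 (SD, n = 2) in DMSO-frozen ones and 0.104% ± 0.0105 (SD, n = 3) in osmolyte-frozen ones. The frozen groups overlapped, with SGI at 0.1162%, above the 1 h DMSO-frozen library at 0.1149%. Against DMSO-frozen cells, 13 of the 36 genes were lower and 0 were higher by edgeR's quasi-likelihood test with Benjamini-Hochberg adjustment at 0.05, where 16.5% of all genes tested were lower and 13.6% higher. At an unadjusted p under 0.05, 19 were lower and 1, POLE, was higher, beside 3254 lower and 3127 higher of all 15564 genes. DESeq2 called 14 lower and 0 higher, beside 2726 lower and 2124 higher over all genes. Against fresh cells, 18 were lower and 1, POLE, was higher, where 21.0% of all genes were lower and 19.1% higher. Between DMSO-frozen and fresh cells, 2 were lower and 0 higher, where 0.617% of all genes were lower and 1.25% higher. An unadjusted p under 0.05 was reached by 3 lower and 0 higher genes, beside 899 lower and 1120 higher of all 15564. DESeq2 called 2 lower and 0 higher there, beside 167 lower and 329 higher over all genes. In RNA from bulk cells, fewer cells in S phase and less of each transcript per cell cannot be told apart.

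The median log2 change of the 36 genes was -0.25 in osmolyte-frozen against DMSO-frozen cells, where that of all genes tested was 0.04. Single genes ranged from -0.66 for RRM1 to 0.18 for POLE. Against fresh cells the median was -0.27, beside 0.02 for all genes, with a range from -0.77 for TK1 to 0.19 for POLE. Between DMSO-frozen and fresh cells it was -0.07, beside -0.01 for all genes. Both osmolyte comparisons use the same osmolyte-frozen libraries, so their values are not independent. Among the 8391 genes expressed within the range of the replication genes, 18.6% were lower than in DMSO-frozen cells and 23.5% lower than in fresh cells.

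**Figure D1:**
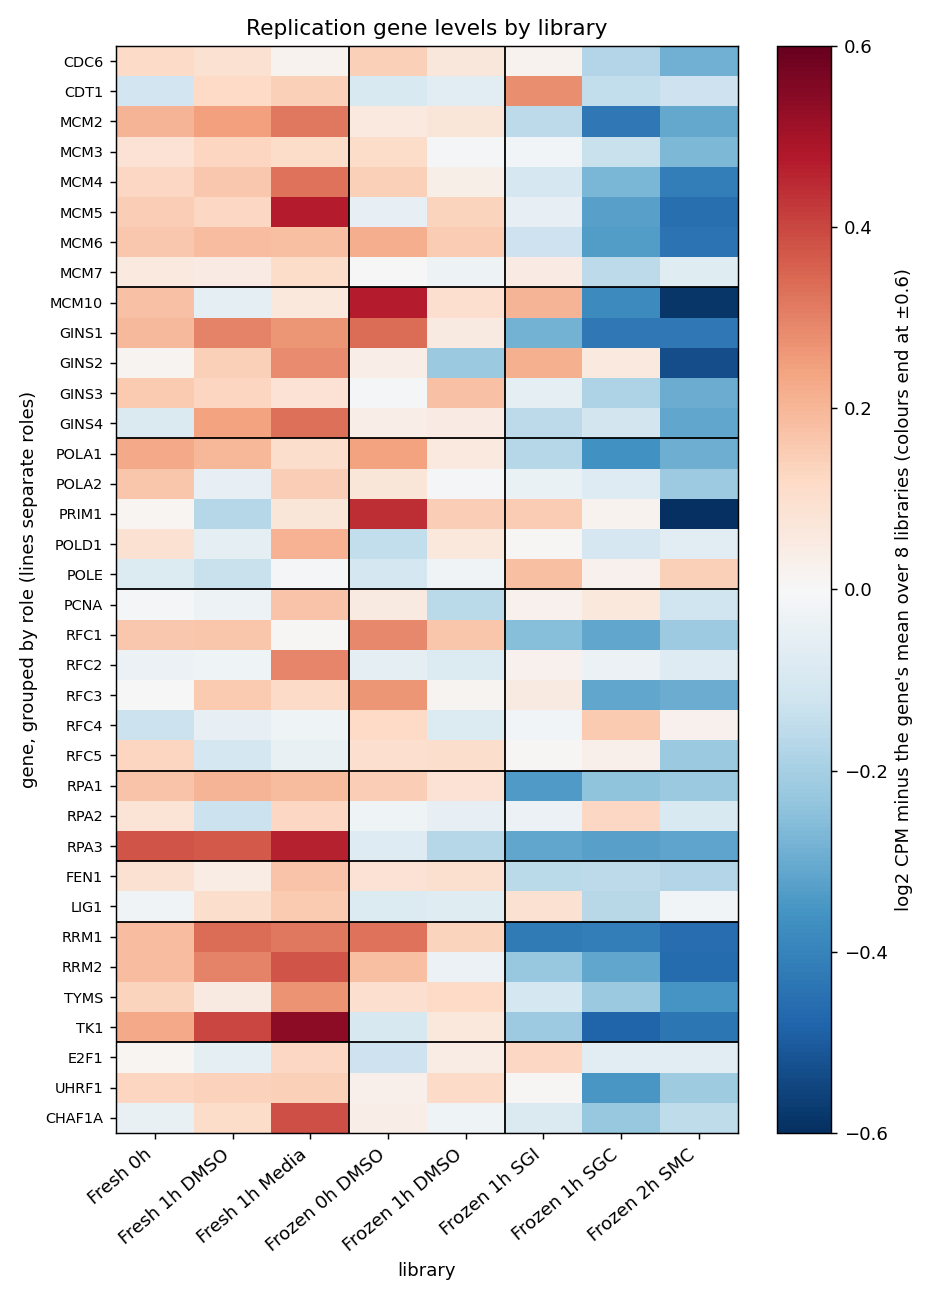
Level of each replication gene in each library, as log2 CPM minus the gene's mean over the 8 libraries, with genes grouped by role and libraries by group; colours end at ±0.6. The SGC and SMC columns are mostly blue, SGI is paler, and POLE is highest in the SGI library.

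The enzymes that supply nucleotides were the one role in which every gene was lower in both osmolyte comparisons, 4 of 4 each time. RRM1, the large subunit of ribonucleotide reductase, which makes deoxyribonucleotides, stood at 79.6, 88.4 and 87.2 CPM in fresh cells at 0 h, with DMSO and in medium. It was at 87.8 and 76.7 CPM in cells frozen in DMSO at 0 h and 1 h, and at 51.0, 52.6 and 52.2 CPM in SMC, SGC and SGI. The osmolyte libraries lay close together and well below all 5 others. By edgeR RRM1 was 1.58-fold lower than in DMSO-frozen cells (log2 -0.66, SE 0.08, adjusted p = 1.60e-05) and 1.64-fold lower than in fresh cells (log2 -0.71, SE 0.08, adjusted p = 7.72e-07). In hg19 the gene lies on chromosome 11 from 4115924 to 4160106.

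RRM2, the small subunit of the same enzyme, whose supply follows the cell cycle, stood at 87.6, 94.7 and 100.2 CPM in the fresh libraries. Its DMSO-frozen values were 87.4 CPM at 0 h and 75.4 CPM at 1 h, and SMC, SGC and SGI gave 56.0, 62.1 and 66.0 CPM. The 3 groups did not overlap, with DMSO-frozen cells between the others. RRM2 was 1.33-fold lower in osmolyte-frozen than in DMSO-frozen cells (edgeR log2 -0.41, SE 0.09, adjusted p = 0.00287) and 1.54-fold lower than in fresh cells (edgeR log2 -0.62, SE 0.08, adjusted p = 1.22e-05). Its difference between DMSO-frozen and fresh cells, log2 -0.21, did not pass (edgeR adjusted p = 0.336).

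TK1, the thymidine kinase of proliferating cells, had the largest fall of the 36 genes against fresh cells. It stood at 42.7, 48.1 and 53.0 CPM in the fresh libraries, at 34.1 and 38.1 CPM after DMSO freezing at 0 h and 1 h, and at 27.0, 26.2 and 31.4 CPM in SMC, SGC and SGI. The groups formed a descending series without overlap. TK1 was 1.70-fold lower in osmolyte-frozen than in fresh cells (edgeR log2 -0.77, SE 0.09, adjusted p = 3.90e-06). It was 1.28-fold lower than in DMSO-frozen cells (edgeR log2 -0.36, SE 0.10, adjusted p = 0.0138). It was also 1 of the 2 genes that fell between fresh and DMSO-frozen cells, 1.33-fold (edgeR log2 -0.41, SE 0.10, adjusted p = 0.0494). TYMS, which makes thymidylate, was at 21.6 to 25.0 CPM in fresh, 22.3 and 22.6 CPM in DMSO-frozen and 16.2 to 19.3 CPM in osmolyte-frozen libraries, and fell 1.26-fold and 1.30-fold against DMSO-frozen and fresh cells. The table's span of TYMS overlaps 3176 bases of ENOSF1, which had a similar mean count, 1028 against 939.5, and how reads in the overlap were assigned is not given in the sources used here.

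**Figure D2:**
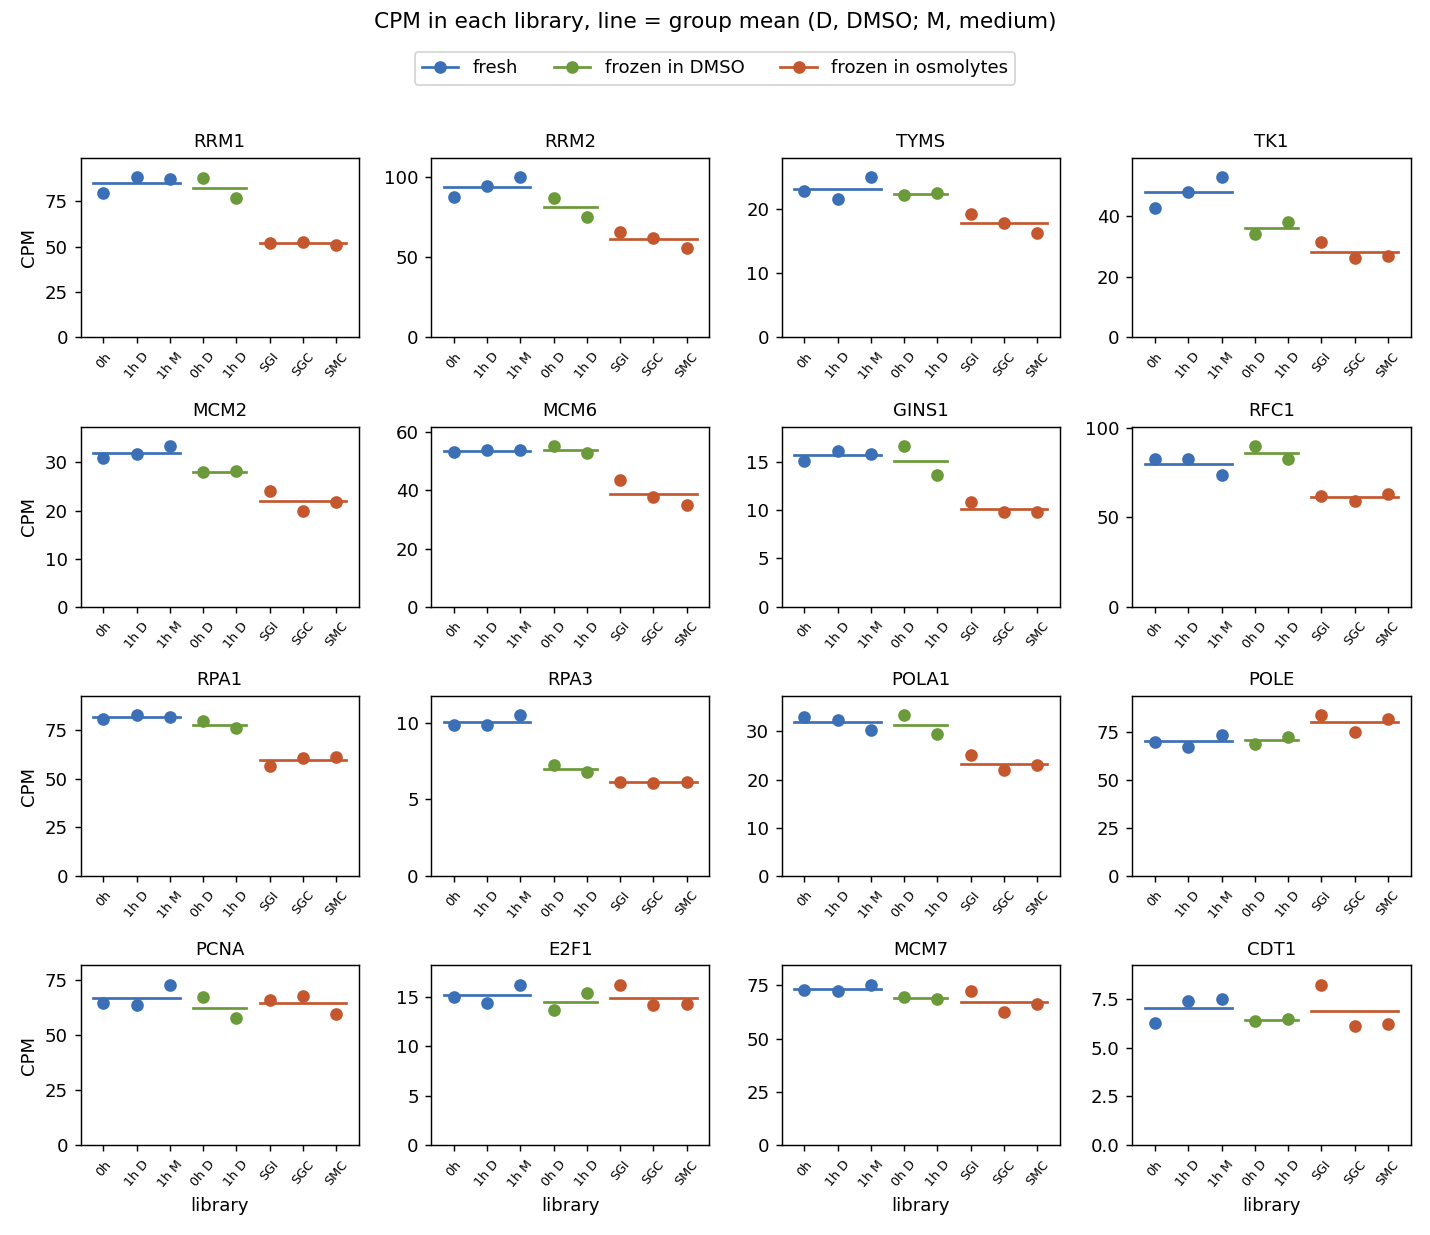
CPM of 16 replication genes in each library, with points for libraries, lines for group means, and axes that start at 0. RRM1 drops from 76.7 to 88.4 CPM in the fresh and DMSO-frozen libraries to 51.0 to 52.6 CPM in the osmolyte-frozen ones, while PCNA and E2F1 overlap between groups.

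Of the 8 genes that load the helicase, 3 fell against DMSO-frozen cells (MCM2, MCM4 and MCM6) and 5 against fresh cells, with MCM3 and MCM5 added. These were 37.5% and 62.5% of the role, beside 16.5% and 21.0% of all genes tested. MCM6, a subunit of the ring, was at 53.2, 54.0 and 53.9 CPM in fresh cells. It was at 55.2 and 52.9 CPM in cells frozen in DMSO at 0 h and 1 h, and at 35.0, 37.7 and 43.6 CPM in SMC, SGC and SGI. The 5 libraries without osmolytes differed little, and all 3 osmolyte libraries were below them. MCM6 fell 1.39-fold against DMSO-frozen cells (edgeR log2 -0.48, SE 0.09, adjusted p = 6.57e-04) and 1.38-fold against fresh cells (edgeR log2 -0.47, SE 0.08, adjusted p = 1.60e-04). In hg19 it lies on chromosome 2 from 136597196 to 136634011.

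MCM2, another subunit of the ring, stood at 30.9, 31.8 and 33.4 CPM in fresh cells, at 28.0 and 28.2 CPM after DMSO freezing and at 21.7, 19.9 and 24.1 CPM in SMC, SGC and SGI. Its 3 groups did not overlap. It fell 1.28-fold against DMSO-frozen (edgeR log2 -0.36, SE 0.09, adjusted p = 0.00764) and 1.46-fold against fresh cells (edgeR log2 -0.55, SE 0.09, adjusted p = 5.50e-05). MCM4 fell 1.27-fold and 1.38-fold in the same comparisons. MCM5 fell 1.43-fold against fresh cells (edgeR log2 -0.52, SE 0.11, adjusted p = 0.00181), but SGI, at 27.7 CPM, reached the lower DMSO-frozen library, at 27.6 CPM, and the difference from DMSO-frozen cells had an edgeR adjusted p of 0.0748. MCM7 did not pass in any comparison, with log2 -0.04 (SE 0.08) against DMSO-frozen cells and -0.13 (SE 0.07) against fresh cells. Levels per kilobase of listed length, averaged over the 8 libraries, ran within the ring from 7.94 CPM per kb for MCM2 to 20.3 CPM per kb for MCM7, a ratio of 2.56.

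The loading factors CDC6 and CDT1 did not pass. CDC6 was at 17.6 to 18.7 CPM in fresh, 18.1 and 19.1 CPM in DMSO-frozen and 14.2 to 17.6 CPM in osmolyte-frozen libraries, with an edgeR adjusted p of 0.0873 against DMSO-frozen cells. CDT1, which is destroyed once S phase begins, was at 6.21, 6.12 and 8.22 CPM in SMC, SGC and SGI and at 6.26 to 7.47 CPM in the other libraries, so the lowest and the highest of the 8 values were both from osmolyte-frozen cells.

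Of the 5 genes that activate the helicase, GINS1 fell against DMSO-frozen cells, and GINS1 and GINS4 against fresh cells. GINS1 stood at 15.0, 16.1 and 15.8 CPM in fresh cells, at 16.6 and 13.6 CPM in cells frozen in DMSO at 0 h and 1 h and at 9.79, 9.78 and 10.8 CPM in SMC, SGC and SGI. The osmolyte libraries again lay below all others. It fell 1.49-fold against DMSO-frozen (edgeR log2 -0.58, SE 0.11, adjusted p = 8.88e-04) and 1.55-fold against fresh cells (edgeR log2 -0.63, SE 0.10, adjusted p = 8.88e-05). GINS2, a subunit of the same complex, went from 5.82 CPM in SMC to 8.75 CPM in SGC and 9.75 CPM in SGI, against 7.21 to 10.2 CPM elsewhere. MCM10 varied as widely, at 6.21, 7.15 and 10.7 CPM in SMC, SGC and SGI and at 8.96 to 12.9 CPM elsewhere. Its log2 change against DMSO-frozen cells was -0.51 with an SE of 0.19, which did not pass (edgeR adjusted p = 0.0608).

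Among polymerases, POLA1 fell and POLE did not. POLA1, the catalytic subunit of the polymerase that starts each strand, stood at 33.0, 32.4 and 30.3 CPM in fresh cells. It was at 33.3 and 29.4 CPM after DMSO freezing at 0 h and 1 h, and at 23.0, 21.9 and 25.0 CPM in SMC, SGC and SGI, below every other library. It fell 1.34-fold against DMSO-frozen cells (edgeR log2 -0.43, SE 0.09, adjusted p = 0.00213) and 1.37-fold against fresh cells (edgeR log2 -0.45, SE 0.08, adjusted p = 3.30e-04). PRIM1, the primase subunit that makes the RNA primer, was the least counted of the 36 genes in a single library, at 2.89 CPM in SMC, with 4.69 CPM in SGC, 5.14 CPM in SGI and 4.09 to 6.27 CPM elsewhere. PRIM1, POLA2 and POLD1 did not pass in any comparison.

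POLE, the catalytic subunit of the leading-strand polymerase, was the one replication gene called higher in any comparison. It stood at 69.7, 67.2 and 73.4 CPM in fresh cells, at 68.5 and 72.5 CPM after DMSO freezing and at 81.4, 74.9 and 83.5 CPM in SMC, SGC and SGI. All 3 osmolyte libraries were above the other 5, SGC only just. It rose 1.14-fold against fresh cells (edgeR log2 0.19, SE 0.07, adjusted p = 0.0457), and the call was kept under 6 of 15 other ways of fitting. Against DMSO-frozen cells its log2 change of 0.18 did not pass (SE 0.08, edgeR adjusted p = 0.102).

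The clamp PCNA, which rings the DNA and holds the polymerases to it, overlapped between all groups. It stood at 64.5, 63.4 and 72.9 CPM in fresh cells, at 67.1 and 57.8 CPM after DMSO freezing at 0 h and 1 h and at 59.6, 67.6 and 66.0 CPM in SMC, SGC and SGI. Its log2 change was 0.04 (SE 0.09) against DMSO-frozen cells and -0.05 (SE 0.08) against fresh cells. Per kilobase of listed length PCNA had the highest level of the 36 genes, at 45.0 CPM per kb, and GINS3 the lowest, at 1.92 CPM per kb. Of the 6 clamp and loader genes 16.7% were lower against DMSO-frozen and against fresh cells, beside 16.5% and 21.0% of all genes tested. Of the 5 clamp loader genes, RFC1, the large subunit, fell alone. It was at 82.3, 82.4 and 73.8 CPM in fresh cells, at 89.6 and 82.4 CPM after DMSO freezing at 0 h and 1 h and at 63.2, 59.2 and 61.7 CPM in SMC, SGC and SGI. The osmolyte libraries were below all 5 others. RFC1 fell 1.40-fold against DMSO-frozen cells (edgeR log2 -0.49, SE 0.08, adjusted p = 2.49e-04) and 1.30-fold against fresh cells (edgeR log2 -0.37, SE 0.07, adjusted p = 5.61e-04). RFC2, RFC3, RFC4 and RFC5 did not pass; RFC4 had log2 0.04 against DMSO-frozen and 0.13 against fresh cells. Whether RFC1 differs from the other loaders was not tested.

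The 3 subunits of RPA, which act as 1 complex on single-stranded DNA, had 3 different patterns. RPA1, the large subunit, stood at 80.8, 82.7 and 82.0 CPM in fresh cells, at 79.7 and 76.4 CPM after DMSO freezing at 0 h and 1 h and at 61.5, 60.7 and 56.8 CPM in SMC, SGC and SGI. It fell with osmolytes, 1.31-fold against DMSO-frozen cells (edgeR log2 -0.39, SE 0.08, adjusted p = 0.00106) and 1.37-fold against fresh cells (edgeR log2 -0.46, SE 0.07, adjusted p = 4.55e-05). RPA2, the middle subunit, overlapped between groups, at 22.2 to 26.4 CPM in fresh, 23.4 and 23.8 CPM in DMSO-frozen and 22.8 to 26.4 CPM in osmolyte-frozen libraries.

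RPA3, the small subunit, was lower in both frozen groups. It stood at 9.89, 9.82 and 10.5 CPM in fresh cells, at 7.22 and 6.78 CPM after DMSO freezing at 0 h and 1 h and at 6.12, 6.07 and 6.13 CPM in SMC, SGC and SGI. Fresh libraries lay well above all 5 frozen ones. RPA3 fell 1.44-fold between fresh and DMSO-frozen cells (edgeR log2 -0.52, SE 0.12, adjusted p = 0.0304) and 1.65-fold between fresh and osmolyte-frozen cells (edgeR log2 -0.72, SE 0.11, adjusted p = 5.30e-05). Its change between the frozen groups, log2 -0.20 (SE 0.12), did not pass (edgeR adjusted p = 0.245). In hg19 its span on chromosome 7 from 7676575 to 7758238 overlaps 77897 bases of the entry LOC729852, with mean counts of 348 and 427, so reads of the pair may be hard to tell apart.

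FEN1, the nuclease that trims the flap of a lagging-strand fragment, was at 25.8 to 28.1 CPM in fresh, 26.5 and 26.7 CPM in DMSO-frozen and 22.1 to 22.4 CPM in osmolyte-frozen libraries, and fell 1.19-fold and 1.21-fold against DMSO-frozen and fresh cells. LIG1, the ligase that seals the fragment, did not pass. UHRF1, which recruits the maintenance DNA methyltransferase to newly copied DNA, fell 1.19-fold (edgeR adjusted p = 0.0475) and 1.24-fold. Against DMSO-frozen cells the call of FEN1 was kept under 7 and that of UHRF1 under 6 of 14 other ways of fitting. CHAF1A, a subunit of the chaperone that deposits histones behind the fork, fell 1.24-fold against fresh cells. E2F1, a transcription factor that drives entry into S phase, overlapped between all groups, at 14.3 to 16.2 CPM in fresh, 13.6 and 15.3 CPM in DMSO-frozen and 14.2 to 16.2 CPM in osmolyte-frozen libraries. Its log2 change was 0.04 (SE 0.11) against DMSO-frozen and -0.03 (SE 0.10) against fresh cells.

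**Figure D3:**
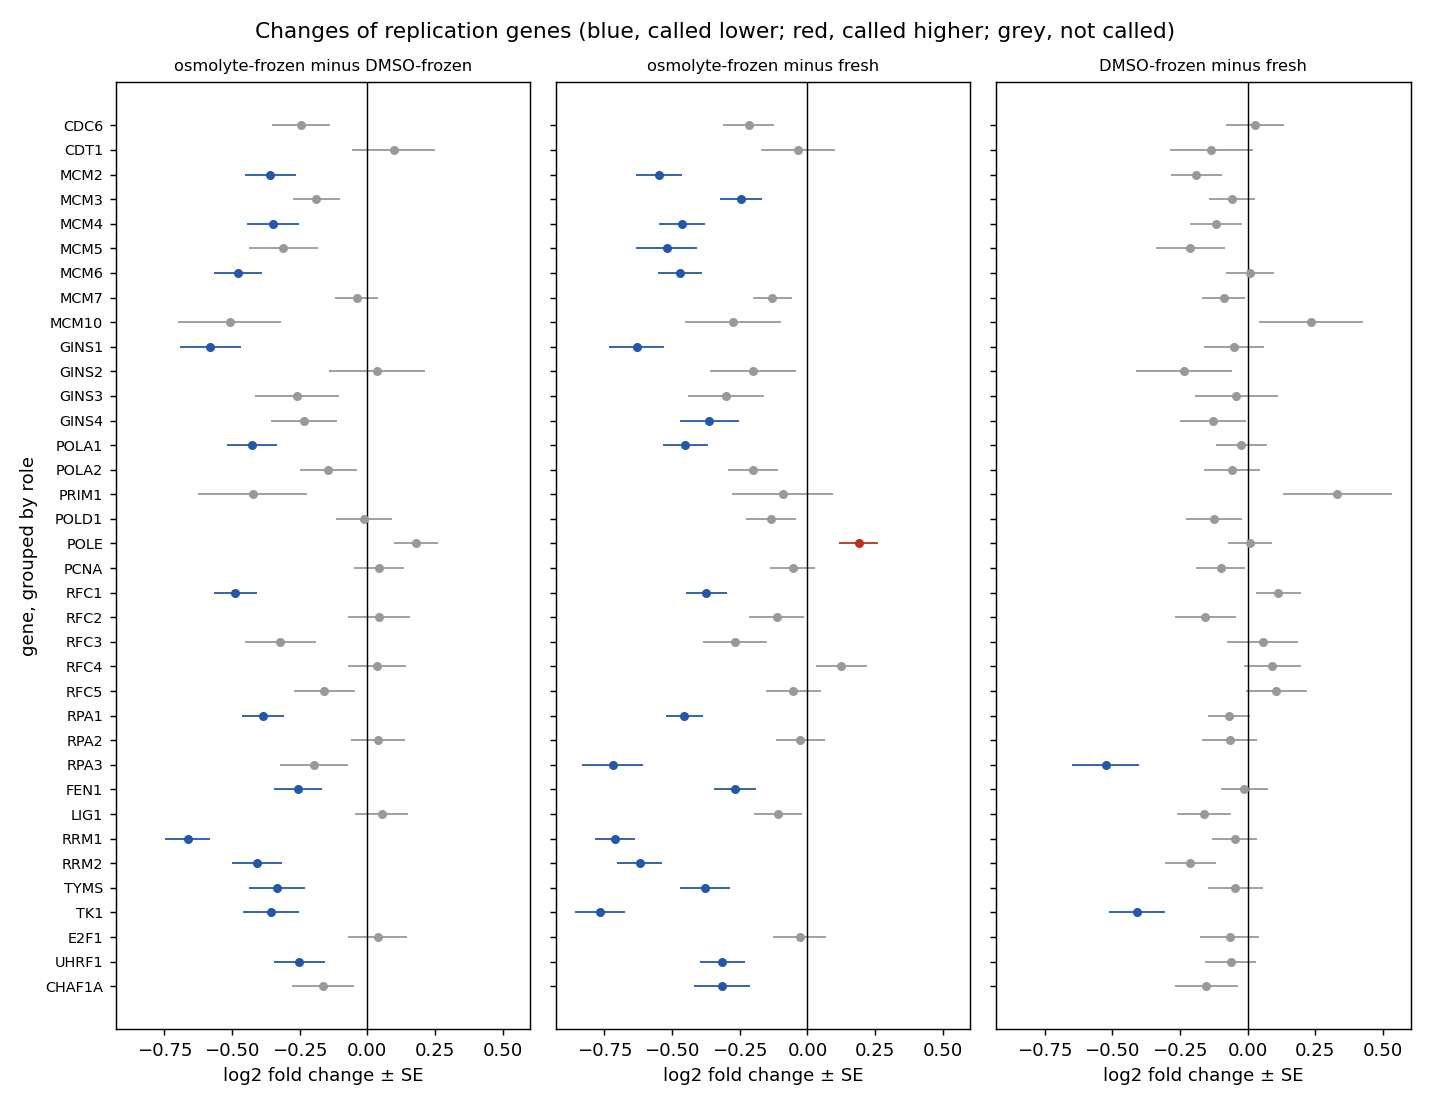
Log2 fold change of each replication gene, with bars of 1 SE, in the 3 comparisons; blue points were called lower and red higher by edgeR at an adjusted p under 0.05. Blue points number 13 of 36 against DMSO-frozen cells, 18 against fresh cells and 2 between DMSO-frozen and fresh cells.

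Because E2F factors act at the promoters of many replication genes, the promoters were searched for E2F words, using RefSeq windows in the build GRCh38.p14 from 250 bases before to 50 bases after each start. Windows were found for 31 of the 36 genes, leaving MCM4, MCM5, GINS4, RPA2 and RPA3 without one. The words TTTCCCGC, TTTCGCGC, TTTGGCGC and TTTGCCGC were searched on both strands, and words may overlap. At least 1 occurred in 18 of the 31 genes (58.1%) and in 19 of their 39 windows (48.7%), beside 3.3% of all 35116 windows and 6.1% of 10377 other genes tested. CCAAT, a box common in cell cycle promoters, was in 64.1% of the windows, beside 34.6% of all windows. By gene it was in 64.5%, beside 42.7% of the other genes tested. The words TTTGAA and TTCGAA, forms of the element of G2 and M phase genes called CHR, were in 5.1% of the windows, beside 16.4% of all windows. By gene they were in 6.5%, beside 15.9% of the other genes tested.

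E2F words were no more frequent among the genes that fell than among the rest. A word was found in 6 of 12 genes with a window that were lower than in DMSO-frozen cells and in 12 of 19 that were not called. For osmolyte-frozen against fresh cells the counts were 7 of 14 lower and 11 of 17 others. RRM1, RRM2, RFC1 and RPA1 fell and had no such word in their windows. The 60 bases around a word are shown for 4 genes that fell against DMSO-frozen cells, MCM6, POLA1, TYMS and UHRF1, and then for 4 that did not, PCNA, E2F1, CDT1 and POLE. Each reads 5′ to 3′ on the strand of the gene, upstream of its start, with E2F words in capitals.
MCM6, chr2:135876502-135876561, minus strand: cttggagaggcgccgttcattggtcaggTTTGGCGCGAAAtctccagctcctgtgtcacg
POLA1, chrX:24693749-24693808, plus strand: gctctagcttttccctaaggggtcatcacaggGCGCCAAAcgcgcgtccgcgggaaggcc
TYMS, chr18:657582-657641, plus strand: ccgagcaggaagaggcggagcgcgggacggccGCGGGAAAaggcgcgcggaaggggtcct
UHRF1, chr19:4909441-4909500, plus strand: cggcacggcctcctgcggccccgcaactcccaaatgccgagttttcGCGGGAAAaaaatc
PCNA, chr20:5126654-5126713, minus strand: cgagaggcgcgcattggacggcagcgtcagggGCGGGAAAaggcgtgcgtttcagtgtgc
E2F1, chr20:33686386-33686445, minus strand: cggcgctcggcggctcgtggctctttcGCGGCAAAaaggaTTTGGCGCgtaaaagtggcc
CDT1, chr16:88803722-88803781, plus strand: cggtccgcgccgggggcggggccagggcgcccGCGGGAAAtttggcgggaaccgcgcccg
POLE, chr12:132687343-132687402, minus strand: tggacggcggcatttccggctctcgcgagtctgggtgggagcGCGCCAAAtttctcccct
MCM6 holds 2 overlapping words on opposite strands, which share the letters GCGC, and E2F1 holds 2 separate ones. TYMS, PCNA, UHRF1 and CDT1 carry the same word, GCGGGAAA, the reverse complement of TTTCCCGC. A word is a match of letters and no evidence that a factor was bound.

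The osmolyte solutions differed from one another, as descriptions of 1 library each. Relative to the mean of the DMSO-frozen libraries, 33 of the 36 genes were lower in SMC, with a median log2 difference of -0.35 and a range from -0.96 for PRIM1 to 0.21 for POLE. In SGC 30 were lower, with a median of -0.26. In SGI 26 were lower, with a median of -0.09 and a range from -0.65 for RRM1 to 0.36 for CDT1. Of all genes tested, 46.7% to 46.9% were lower in each solution. SGI was the highest of the 3 osmolyte libraries for 27 genes, while SMC was the lowest for 19 and SGC for 15. SMC was held for 2 h and the others for 1 h, so for SMC time and solution cannot be told apart. At the shared hold of 1 h, 28 of the 36 genes were lower in SGC than in SGI, beside 48.9% of all genes tested. The median log2 difference of the 36 was -0.13. With 1 library each there is no test. The hold also differed between the groups, at 2 h, 1 h and 1 h for osmolytes and 1 h and 0 h for DMSO. Within DMSO-frozen cells 22 of the 36 genes were lower at 1 h than at 0 h, beside 51.1% of all genes tested, with a median log2 difference of -0.06. With hours of hold as a term of the fit, added after the data were seen, 9 replication genes were lower than in DMSO-frozen cells and 17 lower than in fresh cells. Of all genes, 12.8% and 18.3% were lower in that fit, beside 16.5% and 21.0% without the term.

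The difference between solutions was uneven over the genes. Some that fell were nearly level across the 3 solutions, with a ratio of the highest to the lowest CPM of 1.01 for RPA3 and for FEN1, 1.03 for RRM1, 1.07 for RFC1 and 1.08 for RPA1. Others that fell were spread more widely, with ratios of 1.32 for MCM5 and 1.25 for MCM6. The genes PRIM1, MCM10 and GINS2, which were not called in any comparison, had ratios of 1.78, 1.72 and 1.67. RPA3, PRIM1, MCM10 and GINS2 are among the weakly expressed genes here, and their counts carry more sampling error. The close values of RPA3 are therefore less certain than the ratio alone shows. Among the genes that fell, RPA1 was lowest in SGI and RFC1 was highest in SMC, against the order of most others.

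In unfrozen cells the library kept for 1 h in medium was the highest of the 3 for 23 of the 36 genes and the highest of all 8 for 18. Relative to 0 h its median log2 difference was 0.09, with 7 genes lower, beside 49.7% of all genes tested. The range ran from -0.17 for RFC5 to 0.43 for CHAF1A. With DMSO for 1 h the median difference from 0 h was 0.00, with 17 genes lower, beside 50.1% of all genes. These are single libraries with no test, and the medium library belongs to the fresh group in both comparisons with fresh cells. Frozen and unfrozen cells could be matched for DMSO and time. At 1 h with DMSO 23 of the 36 genes were lower in frozen cells, beside 50.4% of all genes. The median log2 difference was -0.07, with a range from -0.53 for RPA3 to 0.32 for PRIM1. At 0 h, where the unfrozen cells had no DMSO, 19 were lower, beside 50.3% of all genes. The median was -0.01, with a range from -0.45 for RPA3 to 0.43 for PRIM1. RPA3 was thus the lowest and PRIM1 the highest gene in both pairs, which share no library.

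Other genes of replication and the cell cycle were read from 3 lists. Of all genes tested, 16.5% fell and 13.6% rose in osmolyte-frozen against DMSO-frozen cells. Against fresh cells 21.0% fell and 19.1% rose. Of 54 other replication genes, 15 fell and 2 rose in osmolyte-frozen against DMSO-frozen cells, with a median log2 change of -0.18, and 20 fell and 3 rose against fresh cells. DNMT1, the methyltransferase that copies methylation to new DNA, fell by 0.65 on the log2 scale (edgeR adjusted p = 2.58e-05), from 166 and 174 CPM in DMSO-frozen to 99.5 to 120.0 CPM in osmolyte-frozen libraries. USP1, a deubiquitinase that acts on PCNA, fell by 0.52 (edgeR adjusted p = 6.93e-05), and ORC4, a subunit of the origin recognition complex, rose by 0.45 (edgeR adjusted p = 0.00149). Of 30 mitosis genes, 14 fell and 0 rose against DMSO-frozen cells, with a median of -0.23, and 21 fell and 0 rose against fresh cells. They included the topoisomerase TOP2A, which fell by 0.52 (edgeR adjusted p = 0.00144), the checkpoint kinase BUB1, by 0.49 (edgeR adjusted p = 0.00135), and ECT2, which acts in cytokinesis, by 0.45 (edgeR adjusted p = 0.00125). Of 16 G1 cyclins and cell cycle inhibitors, 3 fell (18.8%) and 4 rose (25.0%) against DMSO-frozen cells, with a median of 0.05. The share that fell is near the 16.5% of all genes. The kinase inhibitors CDKN2B and CDKN2A rose by 1.23 (edgeR adjusted p = 4.02e-06) and 0.85 (edgeR adjusted p = 1.39e-05), and the cyclin CCND2 by 2.23 (edgeR adjusted p = 1.10e-05). CDKN2B stood at 22.8 to 25.5 CPM in fresh, 34.1 and 37.4 CPM in DMSO-frozen and 68.9 to 97.5 CPM in osmolyte-frozen libraries, with SGI the lowest of the osmolyte libraries and no overlap between groups. Between DMSO-frozen and fresh cells none of the replication or mitosis genes on these lists passed, and CDKN2B rose by 0.54 (edgeR adjusted p = 0.024). Of all genes tested, 0.617% were lower and 1.25% higher in that comparison.

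The share of genes called lower in osmolyte-frozen cells grew with the listed length of the gene. Split into 3 equal classes at 2256 and 3990 bases, 5.0%, 15.3% and 29.2% of all genes were lower than in DMSO-frozen cells from the short to the long class, and 2 of 9, 6 of 20 and 5 of 7 replication genes were. Against fresh cells the shares were 12.4%, 21.2% and 29.3%, with 3 of 9, 10 of 20 and 5 of 7 replication genes. After each library's trend of level on length was removed, an alternative added after the data were seen, 14 replication genes were lower than in DMSO-frozen cells and 22 lower than in fresh cells. Of all genes, 17.3% and 23.3% were lower in that fit, beside 16.5% and 21.0% in the main fit. Of the 13 genes first called against DMSO-frozen cells, 11 were still called, and MCM4 and UHRF1 were not.

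**Figure D4:**
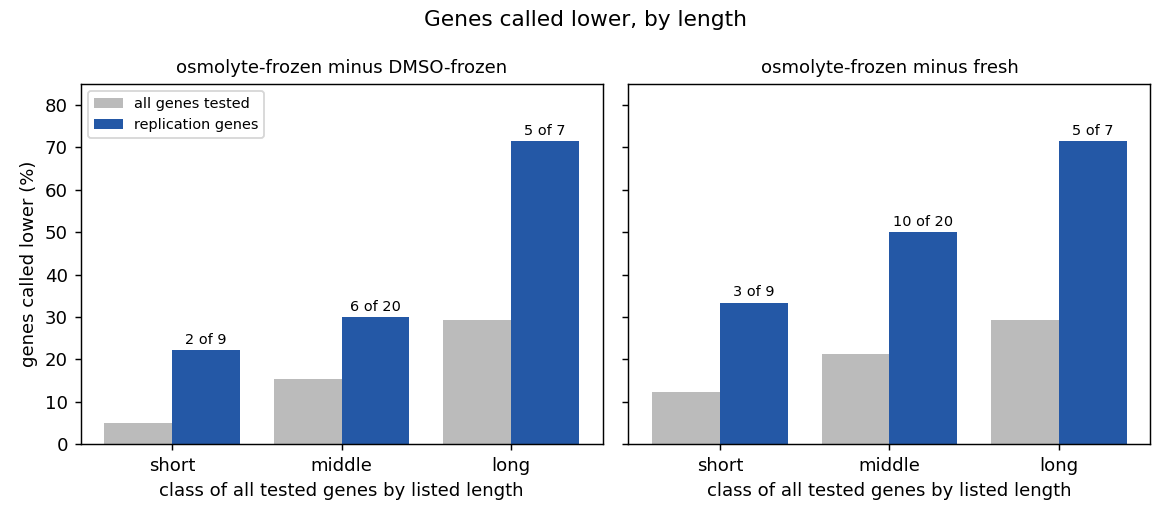
Share of genes called lower in osmolyte-frozen cells, by class of listed length, for all genes tested (grey) and for replication genes (blue, with counts). In both panels the grey and the blue bars grow from the short to the long class, and the blue bars are the higher.

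The counts of calls depended on single libraries. Without the 0 h DMSO-frozen library, fewer replication genes were lower in osmolyte-frozen than in DMSO-frozen cells, and fewer of all genes tested were too. That fit assumes that the remaining DMSO-frozen library varies as the other groups do. RRM1, RFC1, MCM6, GINS1 and RPA1 were called lower than in DMSO-frozen cells under all 14 alternatives run. The calls of RPA3 and TK1 between DMSO-frozen and fresh cells were kept under 6 and 4 of 14, and both were lost when either DMSO-frozen library was left out.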

How the data were processed

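Per the labels' protocols, RNA extracted by miRNeasy columns went into 8 Illumina libraries. Tools listed in the submitters' processing notes are HTSeq, CASAVA 1.9 and a TopHat release written 12.0.6, with hg19 as the build. Per the file headers, the deposited table pairs a whole-number count with an RPKM value for every library. The deposited counts held 0 odd values, for a reason not given in the sources used here, so Poisson intervals assume that each counted unit was entered as 2. The authors' RPKM values served only to recover their library totals. Listed length is the coding length column of the deposited table.

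The test was that of edgeR 4.0.16 (R 4.3.3) on the deposited counts: filterByExpr by fresh or frozen state, TMM scaling, robust glmQLFit and glmQLFTest over 3 groups in 1 fit with 5 residual degrees of freedom, and Benjamini-Hochberg adjustment over 15564 genes at 0.05. DESeq2 1.42.0 was an alternative. On simulated data the test made more false calls than the nominal rate, so calls close to the threshold are less certain than their adjusted p states. An SE is the log2 change divided by the square root of F. Differences between single libraries are of log2 CPM with a prior count of 2. The 36 genes and the gene lists were chosen with earlier results of these data known. Values for every library are given for up to 8 called genes of lowest p per comparison whose libraries do not overlap. From each other list of replication and cell cycle genes, up to 3 genes of lowest p are named, with CPM given for DNMT1 and CDKN2B. PCNA, E2F1, other uncalled genes and POLE, which was called against fresh cells, were chosen to describe each role after their values were seen. The sum of 1 other marker list is not reported here.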

Additional observations from a re-analysis of the deposited data

How the results depend on the processing

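No called replication gene changed direction under any alternative. In osmolyte-frozen against DMSO-frozen cells, the 13 lower genes became 8 with library totals alone, and 6 to 16 when 1 library was left out, lowest without the 0 h DMSO-frozen library and highest without SGI. The 0 higher genes became 1 with library totals alone and 1 with the length trend removed. In DMSO-frozen against fresh cells, the 2 lower genes became 1 with DESeq2 size factors, library totals alone or hold time as a term. They became 0 with the totals behind the deposited RPKM, only those 2 groups fitted or the length trend removed. With 1 fresh library left out they numbered at most 1. Of all genes, 0.4% to 0.9% were lower in these fits, beside 0.6% in the main fit. In osmolyte-frozen against fresh cells, the 18 lower genes numbered 16 to 22 throughout. Of all genes, 16.8% (without SGI) to 24.0% (RPKM totals) were lower in those fits, beside 21.0% in the main fit. The 1 higher gene was lost (0) with DESeq2 size factors, the RPKM totals, no filter, hold time as a term, or only those 2 groups fitted. When 1 library was left out, the higher genes numbered 0 to 1. The cause of these shifts was not tested.

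Scaling moved the balance of all calls. In osmolyte-frozen against DMSO-frozen cells 45.3% of calls were higher, against 56.4% with library totals alone and 26.2% with the RPKM totals, while the median log2 change of all genes went from 0.04 to 0.10 and -0.06 and that of the replication genes from -0.25 to -0.19 and -0.35. In DMSO-frozen against fresh cells 67.0% of calls were higher, against 79.6% with the RPKM totals. Over all genes, DESeq2 called 496 there in place of 291, and 2136 in place of 4684 passed between the frozen groups without the 0 h DMSO-frozen library. No replicate block was fitted, since the labels carry no replicate numbers. Depth limits GINS3, PRIM1, CDT1 and RPA3 most, the genes of lowest mean count.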
